A study of Homo sapiens with 2 samples.

Results

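The immunoglobulin light chain rows of the count table are the 180 rows, of 37122 in all, whose gene name begins with IGKV, IGKJ, IGKC, IGLV, IGLJ or IGLC. They hold 92 rows of the kappa chain and 88 rows of the lambda chain. The rule reads gene names only, but it was set with earlier results of these data known. RNA sequencing was done on Ramos, an established B-cell line from Burkitt's lymphoma, and on Ramos640, a line selected from Ramos by rising doses of rituximab, an antibody to the B-cell surface protein CD20, together with normal human serum (NHS). Both lines grew in RPMI 1640 medium, and Ramos640 was re-exposed every 21 days to rituximab, at the dose of 640 in its name, and 20% NHS to keep its resistance to complement-mediated killing. Ramos640 is therefore a selected population from 1 parent line, and selection and repeated exposure cannot be told apart. RNA from 3 passages was pooled into 1 library per line, so no difference here has a replicate check and no p-value was computed. The Ramos library held 38030090 counted reads and the Ramos640 library 30871826. All intervals are exact 95% Clopper-Pearson intervals and cover counting error only.

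A B cell builds its light chain from a variable (V), a joining (J) and a constant (C) segment. DNA recombination joins V to J at either the kappa locus or the lambda locus, and splicing of the transcript adds C. The finished chain pairs with the heavy chain in the endoplasmic reticulum and reaches the surface as part of the B-cell receptor. Most B cells keep only 1 kind of light chain, and all cells of a lymphoma usually carry the same rearrangement, so a clonal line is read mainly at 1 V, 1 J and 1 C segment. Segments of a family are near-copies of each other, and somatic hypermutation changes the rearranged V segment in germinal centre cells.

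The joining segments are printed first because IGLJ2 and IGLJ3 changed in opposite directions. The reference sequences below come from GRCh37, the build named for the alignment, and read 5′ to 3′ on the coding strand. IGLJ2 is at chr22:23241798-23241835 and IGLJ3 at chr22:23247168-23247205, both on the plus strand, and capitals mark the bases at which they differ. Counted from 1 at the 5′ end, with the IGLJ2 base first, the substitutions are G2T, T3G and A7G, so 3 of 38 bases separate the segments.
IGLJ2: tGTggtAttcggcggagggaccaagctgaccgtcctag
IGLJ3: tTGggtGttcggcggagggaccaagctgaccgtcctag
IGKJ4, at chr2:89160398-89160434 on the minus strand, is shown because it led the kappa joining rows. Its capitals mark the 18-base run that it shares with both IGLJ2 and IGLJ3. The longest run that any other IGKJ segment shared with them was 12 bases, in IGKJ2.
IGKJ4: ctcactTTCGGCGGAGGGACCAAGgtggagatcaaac

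The constant genes carry most light chain reads. Their first 60 coding bases are printed, chosen as the 60 with the most positions that differ among the genes shown. Capitals mark bases that differ from IGLC3. The genes lie on the plus strand at chr22:23237555-23237614 (IGLC1), chr22:23243156-23243215 (IGLC2), chr22:23248512-23248571 (IGLC3) and chr22:23264766-23264825 (IGLC7).
IGLC1: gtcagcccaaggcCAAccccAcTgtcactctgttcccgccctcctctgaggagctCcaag
IGLC2: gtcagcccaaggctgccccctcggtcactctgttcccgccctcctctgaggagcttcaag
IGLC3: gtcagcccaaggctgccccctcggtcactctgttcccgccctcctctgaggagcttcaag
IGLC7: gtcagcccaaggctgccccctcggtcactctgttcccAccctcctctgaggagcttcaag
Over 317 coding bases, IGLC2 differed from IGLC3 at 1 base, IGLC7 at 11 and IGLC1 at 14. The printed stretch holds 6 of these differences for IGLC1, 1 for IGLC7 and 0 for IGLC2, so it does not stand for the whole gene. Of all 50-base windows of these coding bases, 81.3% were shared by IGLC2 and IGLC3. The annotated rows of IGLC2 and IGLC3 span 462 bases each, and their bases outside the coding part were not compared. The sources used here do not state how reads matching several rows were counted, so neighbouring rows are not independent and a value for 1 of them is uncertain.

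Light chain RNA was higher in Ramos640, and the difference lay in lambda. The 180 rows together took 119794 reads in Ramos against 159693 in Ramos640, which is 0.315% and 0.517% of each library. As counts per 1000000 reads (CPM), the sum was 3150 and 5173, and the log2 difference of Ramos640 over Ramos after median-of-ratios scaling was 0.80 (0.79 to 0.81), or 1.74-fold. Lambda rows took 118174 and 158405 reads, a log2 difference of 0.80 (0.79 to 0.81). Kappa rows took 1620 and 1288 reads, a log2 difference of 0.05 (-0.06 to 0.16), so their sum did not differ beyond counting error. In a bulk library, more cells with a transcript and more transcript per cell cannot be told apart.

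Row by row, 96 of the 180 light chain rows had no reads in either library, 41 had 1 to 9 reads in both together, and 43 had at least 10. A row was called when its fold change passed 1.5 and its whole counting interval lay on that side of no change. Of the 43 rows, 15 (34.9%) were called higher in Ramos640, where 11.4% of all 18778 rows with at least 10 reads were. The call lower was made for 2 of them (4.65%), against 13.7% of all rows. The median log2 difference of the 43 rows was 0.49, and that of all rows tested was -0.02. By chain, 12 of 25 lambda rows were called higher and 1 lower, while 3 of 18 kappa rows were called higher and 1 lower. These rows share sequence and hence reads, so their number is not a number of separate observations.

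**Figure D1:**
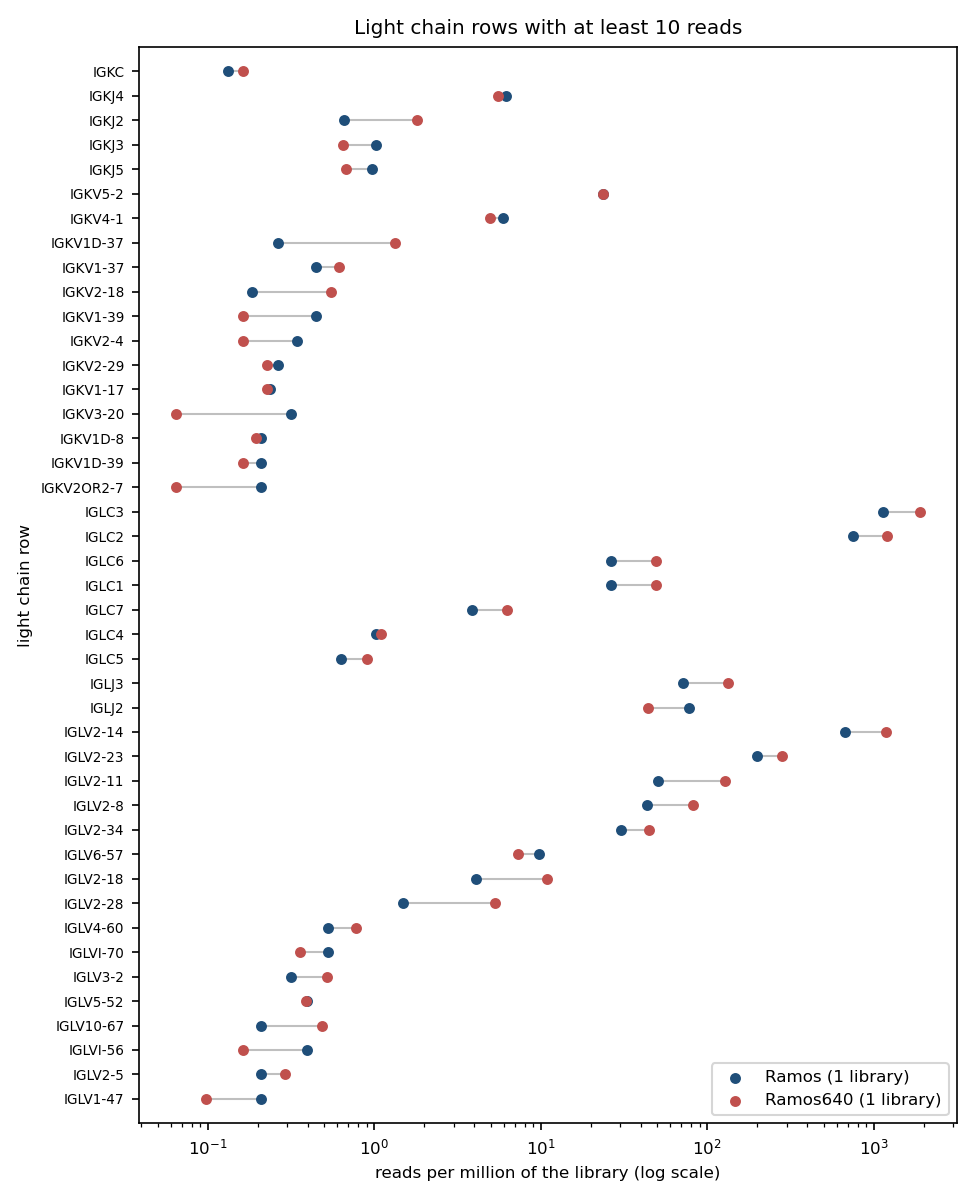
CPM of the 43 light chain rows with at least 10 reads (log axis), with 1 point for Ramos and 1 for Ramos640. IGLC3, IGLC2 and IGLV2-14 stand highest in both lines, and IGKC, with 5 reads in each library, is among the lowest.

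The constant genes encode the part of the chain that pairs with the heavy chain's first constant domain, and both lines read mainly IGLC3 and IGLC2. IGLC3 (chr22:23248512-23248973) had 43073 reads in Ramos against 58437 in Ramos640, a log2 difference of 0.82 (0.80 to 0.84). IGLC2 (chr22:23243156-23243617) had 28718 and 37111, a log2 difference of 0.75 (0.73 to 0.77). Both rows rose in Ramos640 and kept nearly the same proportion to each other: the 95% interval of the IGLC3 to IGLC2 ratio of reads ran from 1.48 to 1.52 in Ramos and from 1.55 to 1.60 in Ramos640. Together they held 97.0% and 96.7% of IGLC reads. Their order among all rows of the table by reads moved from 91 to 49 for IGLC3 and from 155 to 92 for IGLC2.

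The other constant rows were far lower and included the pseudogene IGLC6. IGLC1 (chr22:23237555-23238014) had 1001 and 1517 reads, a log2 difference of 0.98 (0.86 to 1.10). IGLC6 (chr22:23261707-23262023) had 1012 and 1529, also 0.98 (0.86 to 1.09). IGLC7 (chr22:23264766-23265206) had 147 and 193, a log2 difference of 0.77 (0.46 to 1.09). All 3 rose in Ramos640, whereas the pseudogenes IGLC4 (39 and 34 reads) and IGLC5 (24 and 28 reads) passed no call. IGLL5, a gene whose annotation overlaps IGLJ1 and IGLC1 on the same strand, had 1004 and 1522 reads, within 5 reads of IGLC1 in each library, so these counts cannot be told apart. IGLC6 and IGLC1 are each 95.6% identical to IGLC3, and whether their reads came from IGLC2 or IGLC3 was not tested.

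IGLV2-14 was the leading variable row in both lines. It lies at chr22:23101189-23101707 and had 25424 reads in Ramos against 36623 in Ramos640, a log2 difference of 0.91 (0.88 to 0.93). It rose slightly more than the leading constant genes IGLC2 and IGLC3. The ratio of its reads to those of IGLC2 and IGLC3 together was 0.354 (0.349 to 0.359) in Ramos and 0.383 (0.379 to 0.388) in Ramos640. It held 66.1% (65.6 to 66.5) of IGLV reads in Ramos and 67.7% (67.3 to 68.1) in Ramos640. Per length, over the exons of the annotation, IGLV2-14 stood at 1663 RPKM (CPM per kilobase) in Ramos and 2951 in Ramos640. On the same scale IGLC3 stood at 2452 and 4097, and IGLC2 at 1635 and 2602.

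Near-copies of IGLV2-14 made up most of the remaining variable reads. IGLV2-23 (chr22:23040274-23040892) had 7602 and 8723 reads, a log2 difference of 0.58 (0.54 to 0.62), which is 1.49-fold and just short of the call. IGLV2-11 (chr22:23134980-23135496) had 1914 and 3939, a log2 difference of 1.42 (1.34 to 1.502). IGLV2-8 (chr22:23165153-23165783) had 1646 and 2545, a log2 difference of 1.01 (0.92 to 1.10). The members of the subgroup thus changed unequally, and the IGLV2-14 to IGLV2-23 ratio of reads went from 3.34 to 4.20. The pseudogene IGLV2-34 had 1149 and 1389 reads, a log2 difference of 0.65 (0.54 to 0.77), and its call was lost with scaling by total counts (0.57). IGLV2-18 had 156 and 335 reads, a log2 difference of 1.48 (1.21 to 1.77), and the pseudogene IGLV2-28 had 57 and 164, a log2 difference of 1.88 (1.46 to 2.37). All 9 IGLV2 rows together held 98.6% of IGLV reads in Ramos and 99.4% in Ramos640.

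The IGLV2 rows are near-copies of IGLV2-14, and within the subgroup reads followed sequence likeness to it only in part. Over the last exon, identity to IGLV2-14 was 95.6% for IGLV2-23, 94.8% for IGLV2-8, 94.2% for IGLV2-18, 93.3% for IGLV2-11 and 89.0% for IGLV2-34. Of the 50-base windows of the IGLV2-23 exon, 26.5% were found letter for letter in IGLV2-14, as were 15.2% of those of the IGLV2-11 exon. Among 68 other IGLV rows with at least 200 aligned bases, 8 rows reached 80% identity, a limit chosen after the values were seen. All 8 were IGLV2 rows, which is not a separate result because segments of a family are near-copies. The limit on aligned bases left out IGLVI-20, with 87.7% identity over 130 bases and no reads in either library. The 8 IGLV2 rows held 12532 of 13052 reads (96.0%) of the 68 rows in Ramos and 17113 of 17440 (98.1%) in Ramos640. IGLV2-23, the most alike, had the most reads of these 8 rows, and IGLV2-33, the least alike at 82.5%, had 0 and 9. Exceptions were IGLV2-8 and IGLV2-18, each with fewer reads than the less alike IGLV2-11 in both libraries. IGLV2-18 also had fewer reads than IGLV2-34, and IGLV2-5, at 89.9% identity, had 8 and 9. Across the 68 rows, which are not independent and share a library, Spearman's rho of identity and reads was 0.26 in Ramos and 0.33 in Ramos640. How many of these reads came from a rearranged IGLV2-14 that differs from the reference was not tested.

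**Figure D2:**
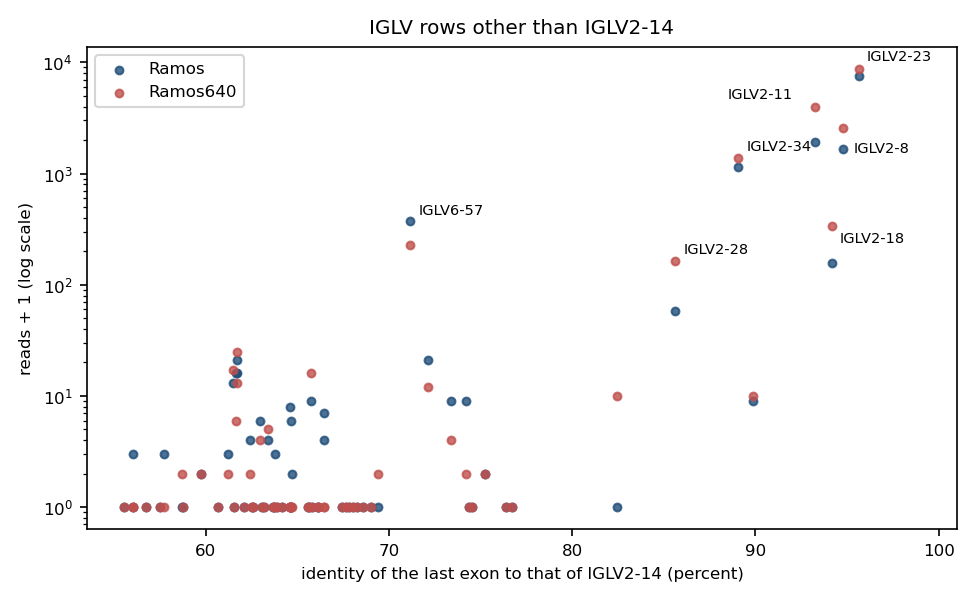
Identity to the last exon of IGLV2-14 (x axis, percent) and reads plus 1 (y axis, log scale) for 68 IGLV rows, in Ramos and in Ramos640. Rows at 82.5% to 95.6% identity carry nearly all reads outside IGLV2-14, and IGLV6-57 is the highest of the rows at or under 76.7%.

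Outside the IGLV2 subgroup, lambda variable reads were few and showed no call higher. The 64 other IGLV rows had 523 reads in Ramos against 328 in Ramos640, a log2 difference of -0.29 (-0.50 to -0.09). Most of them belonged to IGLV6-57 (chr22:22550199-22550676), a segment at the far end of the locus, with 371 and 227 reads and a log2 difference of -0.33 (-0.57 to -0.09). Its change was short of the 1.5-fold call, and its share of IGLV reads was 0.964% and 0.420%. Without it, the other rows summed to 152 and 101 reads. None of the rows outside IGLV2 with at least 10 reads was called in either direction, the pseudogene IGLVI-56 (15 and 5 reads) included.

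The joining rows IGLJ2 and IGLJ3 moved in opposite directions. IGLJ3 (row at chr22:23247030-23247205) had 2714 reads in Ramos against 4130 in Ramos640, a log2 difference of 0.99 (0.92 to 1.06). IGLJ2 (row at chr22:23241661-23241835) had 2967 and 1361, and fell by 0.74 on the log2 scale (-0.84 to -0.65). IGLJ2 was thus the higher row in Ramos and the lower in Ramos640. The IGLJ2 to IGLJ3 ratio of reads was 1.09 (1.04 to 1.15) in Ramos and 0.330 (0.310 to 0.350) in Ramos640. As a share of IGLJ reads, IGLJ2 went from 52.2% (50.9 to 53.5) to 24.8% (23.6 to 25.9) and IGLJ3 from 47.8% to 75.2%. IGLJ1, IGLJ4, IGLJ5, IGLJ6 and IGLJ7 were at 0 in both libraries, which allows up to 3 reads, or 0.0789 CPM for Ramos and 0.0972 CPM for Ramos640.

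The constant genes directly downstream both rose. IGLC2 lies behind IGLJ2 and IGLC3 behind IGLJ3, and rearranged transcripts splice from a joining segment to the constant gene next to it. The ratio of IGLJ2 to IGLC2 reads went from 0.103 to 0.0367, while that of IGLJ3 to IGLC3 went from 0.0630 to 0.0707. IGLC3 held 58.2% and 59.1% of IGLC reads, a shift far smaller than that between the joining rows. The annotated rows of IGLJ2 and IGLJ3 are longer than the 38-base segments printed above and reach into the DNA before them. Whether their reads lay in the segment or before it cannot be told from a count per row.

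**Figure D3:**
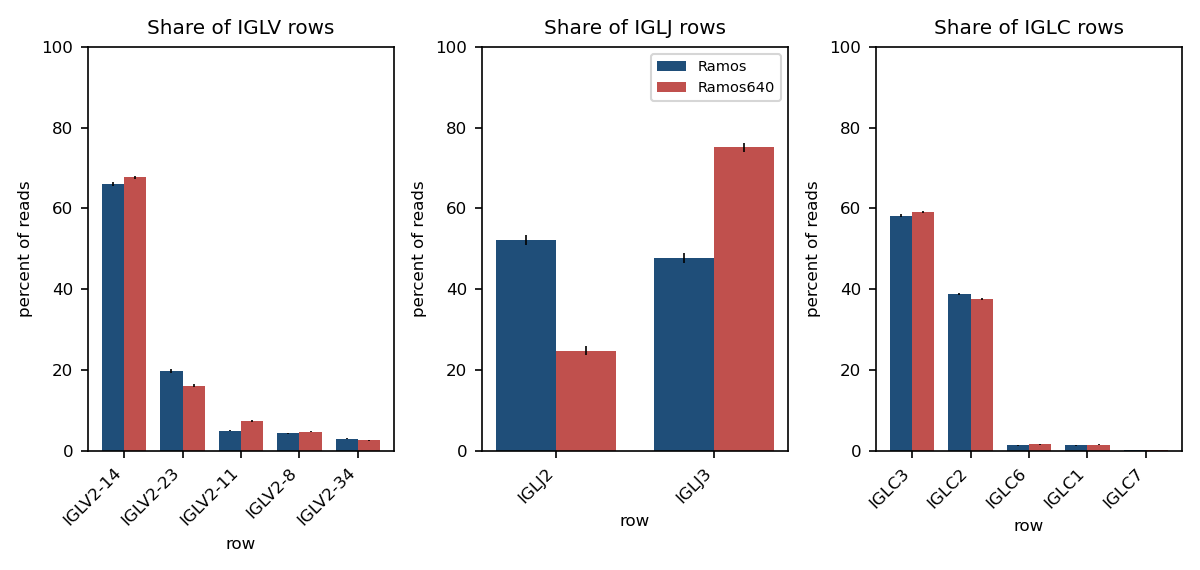
Share of reads (percent) held by each leading row within IGLV, IGLJ and IGLC, in Ramos and in Ramos640. IGLV2-14 holds 66.1% and 67.7% of IGLV reads and IGLC3 58.2% and 59.1% of IGLC reads, while IGLJ3 goes from 47.8% to 75.2% of IGLJ reads.

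Kappa RNA was low in both lines and almost without its constant gene. IGKC (chr2:89156674-89157196, minus strand), the only kappa constant gene, had 5 reads in each library, whereas the lambda constant rows summed to 74014 and 98849. Kappa thus made up 0.00676% (0.00219 to 0.0158) of constant reads in Ramos and 0.00506% (0.00164 to 0.0118) in Ramos640. Among variable reads the kappa share was larger, at 3.21% and 1.84%. Over all light chain rows it was 1.35% (1.29 to 1.42) and 0.807% (0.763 to 0.852). Lambda reads increased and kappa reads did not, so the kappa share fell between these libraries.

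IGKV5-2 and IGKV4-1, the variable segments nearest to the kappa joining segments and both on the plus strand, held most kappa reads. IGKV5-2 (chr2:89196748-89197300) had 902 reads in Ramos against 730 in Ramos640, a log2 difference of 0.08 (-0.07 to 0.22). IGKV4-1 (chr2:89184913-89185669) had 226 and 154, a log2 difference of -0.17 (-0.48 to 0.13). Neither differed beyond counting error, and together they took 88.3% and 87.1% of IGKV reads. Per length IGKV5-2 stood at 58.1 RPKM in Ramos and 58.0 in Ramos640, against 0.251 and 0.310 for IGKC. There were 180 reads (77.0 to 557) of IGKV5-2 for each read of IGKC in Ramos and 146 (62.3 to 451) in Ramos640.

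Among the kappa joining rows, IGKJ4 had 236 and 171 reads, a log2 difference of -0.08 (-0.38 to 0.21), and it held 70.0% and 63.8% of IGKJ reads. IGKJ2 had 25 and 56 reads, a log2 difference of 1.503 (0.84 to 2.29), and was the only IGKJ row called. IGKJ3 had 39 and 20 reads, IGKJ5 had 37 and 21, and IGKJ1 had none. The IGKJ4 row is the segment that shares the 18-base run with IGLJ2 and IGLJ3 printed above, and any passage of reads between these rows was not tested.

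The remaining kappa rows rested on few reads. IGKV1D-37 had 10 reads in Ramos against 41 in Ramos640, a log2 difference of 2.29 (1.40 to 3.58), while its near-copy IGKV1-37 had 17 and 19. IGKV2-18, a pseudogene, had 7 and 17 reads, a log2 difference of 1.52 (0.32 to 3.17). IGKV3-20 had 12 and 2 reads, a log2 difference of -1.81 (-5.41 to -0.04), and was the only kappa row called lower. IGKV1-39, with 17 and 5 reads, and IGKV2-4, with 13 and 5, had intervals that include no change. The distal IGKV cluster, an inverted duplicate of the proximal one, had 30 and 59 reads over 36 rows, of which the 35 rows other than IGKV1D-37 had 20 and 18, and the proximal cluster 1228 and 953 over 40 rows. The 11 orphon rows, copies outside the loci, had 20 reads in Ramos against 4 in Ramos640, among them IGKV2OR2-7 with 8 and 2.

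**Figure D4:**
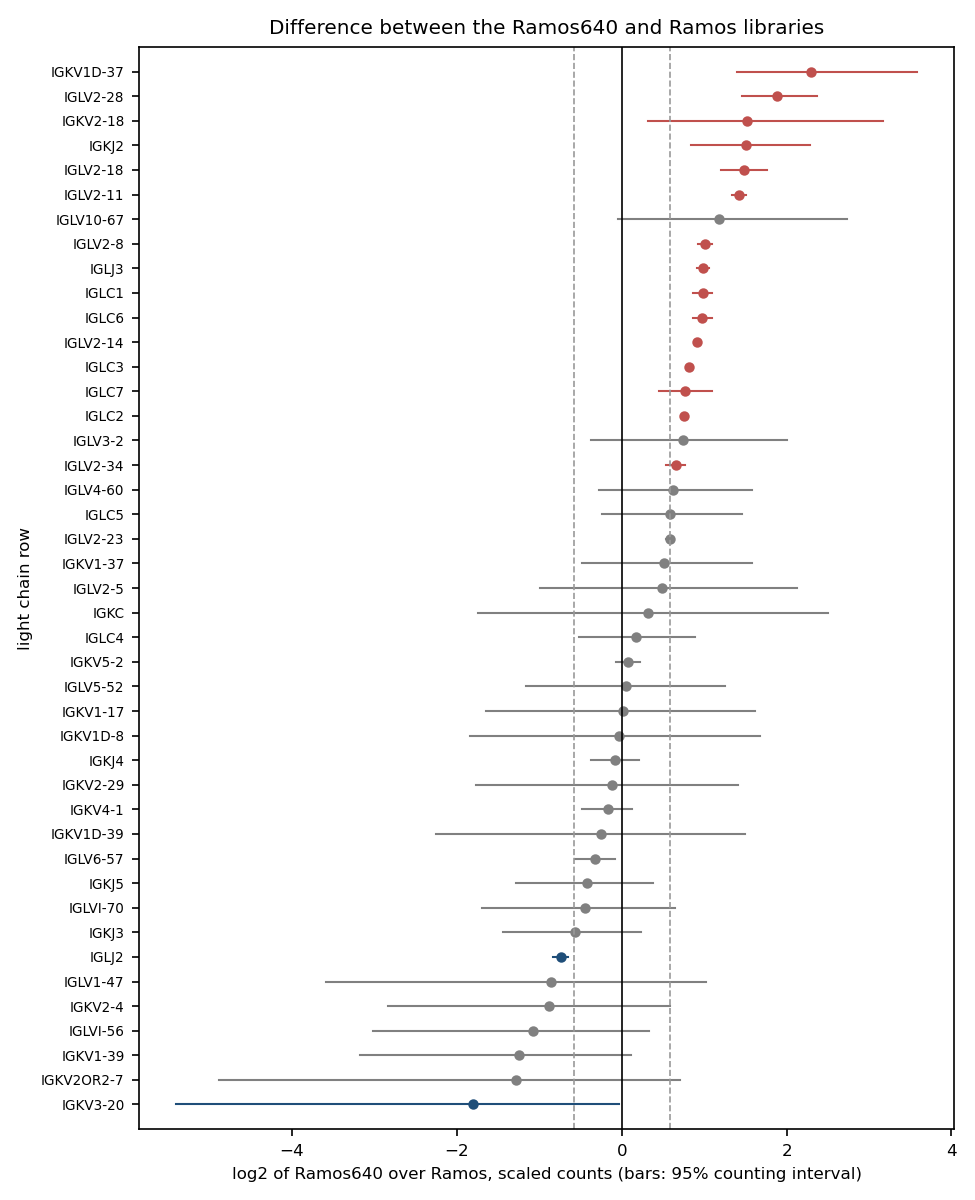
Log2 difference of Ramos640 over Ramos for the 43 light chain rows with at least 10 reads, with 95% counting intervals and dashed lines at a fold of 1.5 in each direction. IGLC and IGLV2 rows lie to the higher side, IGLJ2 to the lower side, and the interval of IGKV5-2, the leading kappa row, runs from -0.07 to 0.22.

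By annotation, the 37 lambda variable rows not labelled pseudogenes had 37199 reads in Ramos against 52451 in Ramos640. They compare with 1280 and 1613 reads for the lambda variable pseudogenes (36 rows). Of these lambda pseudogene reads, IGLV2-34 alone had 1149 and 1389. The 44 kappa variable rows not labelled pseudogenes had 1222 and 982 reads, and kappa variable pseudogenes (42 rows) 56 and 33. The variable pseudogene reads therefore lay mainly in a single row that is close in sequence to the leading gene. Lambda constant pseudogenes (4 rows) had 1075 and 1592 reads, of which IGLC6 had 1012 and 1529.

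The DNA around the leading variable segments holds the elements known for recombination and transcription of these genes. Recombination signals, cut by the RAG proteins, follow each unrearranged V segment as a heptamer (CACAGTG) and a nonamer (ACAAAAACC) set apart by 23 bases in lambda and 12 in kappa, and part from the V segment when it rearranges. They are shown for the leading rows, with heptamer and nonamer in capitals, at chr22:23101701-23101739 (IGLV2-14, plus), chr22:23040907-23040945 (IGLV2-23, plus), chr22:22550677-22550715 (IGLV6-57, plus) and chr2:89197303-89197330 (IGKV5-2, plus).
IGLV2-14: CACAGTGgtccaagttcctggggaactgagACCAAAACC
IGLV2-23: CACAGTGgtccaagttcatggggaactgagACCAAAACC
IGLV6-57: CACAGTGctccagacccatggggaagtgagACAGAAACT
IGKV5-2: CACAGTGatacaccctgttACAAAAACC
The nonamer letters of IGKV5-2 matched in full, those of IGLV2-14 and IGLV2-23 had 1 mismatch and those of IGLV6-57 had 2. The heptamer was searched on the coding strand, in 86 bases around the gene's end, and was found for 40 of 73 lambda V rows (54.8%) and 58 of 84 kappa V rows (69.0%). An equally long stretch of RefSeq promoters held it in 0.672% of 35116.

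The octamer (ATTTGCAT, or ATGCAAAT on the other strand) is the promoter element bound by the OCT factors and their B-cell coactivator. It is printed in capitals inside 30 bases for the leading lambda row, for IGLV2-11, which rose more, and for the leading kappa row, at chr22:23101111-23101140 (IGLV2-14), chr22:23134903-23134932 (IGLV2-11) and chr2:89196691-89196720 (IGKV5-2), all on the plus strand.
IGLV2-14: tcaaggtggagATTTGCATgcaggccccac
IGLV2-11: tcagggtggagATTTGCATggaggccccac
IGKV5-2: tgtaccatataATTTGCATatttgtccttt
The octamer was searched on both strands from 250 bases before to 50 after the start codon. It was present for 32 of 37 lambda (86.5%) and 31 of 44 kappa (70.5%) variable genes with an annotated start codon, and in 623 of 35116 RefSeq promoters (1.77%, GRCh38.p14, counted from the gene start). It was present for 15 of 18 such genes with at least 10 reads and for 25 of 36 with none. The windows of IGLV2-23 and IGKV4-1 did not hold these letters. A match is a description of the letters only.

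The partners of the light chain that were called rose, as the lambda sum did. IGHM, the heavy chain of IgM, had 74596 reads in Ramos against 96811 in Ramos640, a log2 difference of 0.76. IGHD, the heavy chain of IgD, had 344 and 525 reads, a log2 difference of 0.99. CD79B, a signalling subunit of the receptor, had 69495 and 82890, a log2 difference of 0.64, and its partner CD79A had 25460 and 29007, a log2 difference of 0.57 that fell short of the call. Of 12 partner genes, 6 had at least 10 reads and 3 were called higher and none lower, with a median log2 difference of 0.60, where 11.4% of all rows tested were called higher and 13.7% lower. The log2 difference of IGHM lay between those of IGLC2 (0.75) and IGLC3 (0.82).

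Genes for the assembly of antibody in the endoplasmic reticulum rose in part, with 9 of 18 called higher (11.4% of all rows), none lower (13.7% of all rows) and a median log2 difference of 0.58. CALR, a chaperone for glycoproteins, had 38066 reads in Ramos against 58543 in Ramos640, a log2 difference of 1.00. HSPA5 (BiP), which holds unpaired heavy chains, had 21686 and 28147, a log2 difference of 0.76. HSP90B1, PDIA6, P4HB and SSR4 were called higher too, with log2 differences of 0.98, 0.84, 0.79 and 0.95.

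The surrogate light chain stands in for the light chain in precursor B cells. Its genes and their relatives did not move as a group: of 5 rows, 2 were called higher and 2 lower, where 11.4% and 13.7% of all rows were. VPREB1 had 163 reads in Ramos against 21 in Ramos640, a log2 difference of -2.53 (-3.31 to -1.92), and VPREB3 had 438 and 117, a log2 difference of -1.52. IGLL1 had 90 and 147 reads, a log2 difference of 1.08, and IGLL5 had 1004 and 1522, a log2 difference of 0.98. VPREB1 lies inside the lambda locus, so its change ran against that of the IGLV2 and IGLC rows on the same chromosome.

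Of 10 recombination genes with at least 10 reads, 1 was called higher and 2 lower, with a median log2 difference of -0.13, against 11.4% and 13.7% of all rows. RAG1 had 9 and 7 reads, and RAG2 had none in Ramos and 14 in Ramos640. Of the 17 factors of the light chain enhancers and promoters, 1 was called higher and 2 lower, with a median of -0.13, no more than the 11.4% and 13.7% of all rows. POU2F2 (OCT2), which binds the octamer, had 2921 and 4245 reads, a log2 difference of 0.92. The OCT factor POU2F1 and the coactivator POU2AF1 had log2 differences of -0.13 and -0.26, and neither was called. PAX5, a B-cell identity factor, had 4624 and 2039 reads, a log2 difference of -0.80.

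Other genes around the loci were compared as well. Of 13 rows with at least 10 reads within 500 kb outside the lambda locus, 1 was called higher (SDF2L1, a chaperone cofactor, log2 difference 0.74) and none lower, with a median log2 difference of 0.18, where all rows gave 11.4% and 13.7%. BCR, a close neighbour, had 6747 and 6723 reads, a log2 difference of 0.38. Inside the lambda locus, 8 other rows had at least 10 reads, of which 3 were called higher, IGLL5 among them, and 1 lower. Against the same shares of all rows, none of 4 neighbours at the kappa locus with at least 10 reads was called, with a median of 0.02.

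Markers of cell type were read beside these results. All 8 B-cell markers had reads, from 1904 upward, with 3 called higher and 2 lower in Ramos640, where 11.4% and 13.7% of all rows were. MS4A1, which encodes CD20, the target of rituximab, had 9654 and 1904 reads, a log2 difference of -1.96. Of the germinal centre markers, MME (CD10) had 12005 and 4880 reads and LMO2 had 1138 and 347, and both were called lower. Of 5 plasma cell markers with at least 10 reads 2 were called higher and 1 lower: XBP1 had 18028 and 22624 reads and PRDM1 had 16 and 31, while TNFRSF17 had 1887 and 874. Monocyte markers summed to 20 and 17 reads and epithelial markers to 43 and 16. Of the T-cell markers, CD3D, CD2 and CD8A were at 0 in both libraries, CD3E had 1 and 31 reads, CD4 had 11 and 19, and TRAC had 1555 and 583. The part of these marker differences in the light chain values was not tested.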

How the data were processed

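Total RNA of 3 pooled passages per cell line was made into 1 Ion Proton library each. The authors removed adaptors, aligned reads with MapSplice to GRCh37 and deposited whole-number read counts per gene, the only unit used here. The counting program, annotation, strand setting and treatment of reads with several matches are not given in the sources used here. Both libraries were mapped to their cell line by their labels, and 0 columns of per-sample values were left unused.

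Counts were scaled by median-of-ratios size factors (1.14 for Ramos and 0.876 for Ramos640). Log2 differences used a pseudocount of 1 for single rows, and intervals are 95% Clopper-Pearson intervals of the Ramos640 share of reads (scipy 1.17.1). With 1 library per line, no dispersion can be estimated, so no count model was fitted; edgeR 4.0.16 (R 4.3.3) gave TMM factors only. Calls need at least 10 reads in both libraries together and a fold past 1.5. The script for calls was tested on simulated data.

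All 180 rows matched GENCODE names on GRCh37. Sequences were read from that genome, aligned with Biopython 1.88, and promoter shares came from RefSeq; no RefSeq promoter entry of a light chain segment was used.

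Named rows are those with at least 100 reads, the leading row of each class, the 5 largest rises and falls, and rows with 3 or fewer reads in 1 library and at least 30 in the other. IGLC4, IGLC5, IGLJ1, IGLJ4 to IGLJ7, IGKJ1, IGKJ3, IGKJ5 and IGKV1-37 were added after their values were seen, to complete their classes. Members, lists and limits were chosen with earlier results of these data known. Alternatives were TMM, total counts, other pseudocounts, minimum reads, folds and row sets. Results on hypermutation genes are not reported here.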

Additional observations from a re-analysis of the deposited data

How the results depend on the processing

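With 1 library per cell line, no value carries an error between cultures, and rows under 10 reads, IGKC among them by library, give wide intervals. No paired analysis was possible because each line has 1 library. Of the alternatives to the main values, 52 kept their call or stayed close and 13 moved, and for single rows 107 kept their side of the call and 1 lost its call. No called value changed sign, but with total counts the uncalled kappa sum became -0.03 (-0.14 to 0.08) and the uncalled IGKV5-2 -0.0044. With total counts, the log2 difference was 0.72 for all light chain rows and 0.72 for lambda rows, and IGLV2-34 (0.57) lost its call; that scaling moved the median of all rows by -0.08. Without IGLC3, the log2 difference of all rows was 0.78, and that of the kappa constant row alone was 0.38 (-1.74 to 2.50). The kappa share was 0.00676% in Ramos and 0.00506% in Ramos640 over constant rows, and 3.21% and 1.84% over variable rows. Set only against IGLV rows outside its subgroup, IGLV2-14 held 98.0% and 99.1%. With a fold of 2, 7 light chain rows were called higher and 1 lower (5.76% and 7.40% of all rows), and among the 18 with at least 100 reads 12 were called higher and 1 lower (9.94% and 12.6% of all rows). Apart from what their construction sets, the cause of these moves was not tested.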

Other observations

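The table also holds a row for each whole locus, which the rule on names leaves out. IGL had 135245 reads in Ramos against 174908 in Ramos640, a log2 difference of 0.75 (0.74 to 0.76). IGK had 189 and 183 reads, a log2 difference of 0.33 (0.03 to 0.64), fewer than the 902 and 730 reads of IGKV5-2 within that locus. The whole-locus rows are therefore not sums of the segment rows.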
